A study of Homo sapiens with 20 samples.

Results

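The genes followed here encode the machinery that replaces proteasomes when they are blocked and the enzymes that supply and recycle ubiquitin. They were chosen by symbol, as the rows of the expression table named NFE2L1, DDI2, NGLY1, VCP, UBB, UBA1, UCHL1, UCHL5 and USP14, which is 9 of the 18305 genes listed. All 9 were present once, and all 9 passed the filter on low values, for which 1 or more of the groups had to average 1 FPKM. FPKM is the number of fragments assigned to a gene, scaled for transcript length and for the size of the library, so it can be compared between genes as a level per length.

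RNA was sequenced from 20 libraries in 10 groups of 2 replicates. The parental (WT) cells were the B-lymphoblastoid line ARH-77 (named ARH77) and 3 lines of myeloma, which were AMO1, L363 and RPMI-8226 (named RPMI below). Bortezomib-resistant (BtzR) cells of all 4 lines were kept in 90 nM bortezomib, and carfilzomib-resistant (CfzR) cells labelled AMO1 and L363 were kept in 90 nM carfilzomib. Both drugs inhibit the chymotrypsin-like site of the proteasome. All cells were grown in the same serum-supplemented medium. The resistant cells were grown with drug and the WT cells without it, so an effect of resistance and an effect of drug in the medium cannot be told apart. Whether a resistant line is a single clone is not given in the sources used here. These are bulk samples, in which fewer cells expressing a gene and less RNA of it per cell cannot be told apart.

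The proteasome degrades proteins that carry chains of ubiquitin. The transcription factor NRF1, made from the gene NFE2L1, is drawn out of the endoplasmic reticulum membrane by the ATPase VCP and is normally degraded at once. When the proteasome is inhibited, NRF1 is stripped of its sugars by NGLY1 and cut by the protease DDI2, and the released factor raises the transcription of proteasome subunit genes, a response called the bounce-back. UBB encodes ubiquitin, UBA1 the main enzyme that activates it, and UCHL1, UCHL5 and USP14 are deubiquitinases, of which UCHL5 and USP14 work on the proteasome itself. The name NRF1 here is that of the NFE2L1 protein and not of the mitochondrial regulator that bears the gene symbol NRF1.

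UBB is shown first because its repeats bear on how its level can be read. Its coding sequence in the GENCODE v29 annotation holds 3 head-to-tail ubiquitin units of 76 residues (228 bases) that encode the same protein. Each unit is given from its first codon, with the 14 bases that are not the same in all 3 in capitals.
UBB unit 1: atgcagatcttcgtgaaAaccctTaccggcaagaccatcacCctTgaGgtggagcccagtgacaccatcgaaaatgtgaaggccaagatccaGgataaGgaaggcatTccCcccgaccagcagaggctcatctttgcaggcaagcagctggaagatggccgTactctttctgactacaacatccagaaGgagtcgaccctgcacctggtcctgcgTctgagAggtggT
UBB unit 2: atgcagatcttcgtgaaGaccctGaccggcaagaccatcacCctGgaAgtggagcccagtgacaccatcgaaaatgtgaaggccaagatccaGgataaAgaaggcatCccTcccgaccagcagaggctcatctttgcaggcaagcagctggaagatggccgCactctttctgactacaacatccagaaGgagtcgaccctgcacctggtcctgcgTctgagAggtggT
UBB unit 3: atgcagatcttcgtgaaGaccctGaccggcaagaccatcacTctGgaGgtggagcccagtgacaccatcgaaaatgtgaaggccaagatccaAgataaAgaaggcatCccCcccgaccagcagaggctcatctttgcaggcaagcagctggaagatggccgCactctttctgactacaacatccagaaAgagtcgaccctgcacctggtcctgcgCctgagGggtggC
Pairs of these units were identical at 94.7% to 96.5% of bases. RPS27A, which holds 1 ubiquitin unit fused to a ribosomal protein, was identical to the UBB units at 79.4% to 83.3% of bases, and the longest stretch its coding sequence shared with that of UBB was 26 bases. The read length is not given in the sources used here, so how many reads could be assigned to more than 1 gene that encodes ubiquitin is unknown, and the level of UBB is uncertain to that extent.

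NRF1 binds the antioxidant response element, and the promoters were therefore searched for its core TGACNNNGC on both strands. RefSeq promoter windows (GRCh38.p14, 300 bases around each start) were found for all 9 genes, 15 windows in all. The core was present in at least 1 window of 4 of the 9 genes, against 16.1% of all 27305 genes with a window and 9 of 28 proteasome subunit genes. Each match is shown in the gene's direction with 10 bases on either side and the core in capitals.
UBB, chr17:16381301-16381329, plus strand: gagggcgaggTGACGCGGCgctgggcctt
UCHL5, chr1:193059393-193059421, minus strand: gcgctgcaggTGACGGCGCccggaggctg
USP14, chr18:158521-158549, plus strand, with the core read on the other strand: tttgcgtgttGCTGCGTCAtcgccagtgg
VCP, chr9:35072796-35072824, minus strand: tgcggccaatTGACGTGGCgttactaggc
A heat shock element was in the windows of 0 of the 9 genes, and in those of 0.608% of all genes. A match describes letters only.

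The libraries labelled AMO1 CfzR stood apart from their label. Across tested genes, log2(FPKM + 1) in these 2 libraries correlated at 0.986 to 0.992 with the L363 libraries and at 0.878 to 0.883 with the other AMO1 libraries. Replicates of a group correlated at 0.986 to 0.998, and L363 libraries of different groups at 0.985 to 0.989. They are called the libraries labelled AMO1 CfzR throughout, and they were compared with AMO1 WT and with L363 WT. No call or direction that passed in the comparisons without them changed when they were left out of the fit. Between 10455 and 11023 genes reached 1 FPKM in a library. The 6 plasma cell markers checked summed to 506 FPKM or more in every myeloma library and to 218 to 227 FPKM in the ARH77 libraries. SDC1 and PRDM1 averaged higher in every myeloma group than in either ARH77 group, while TNFRSF17, IRF4, XBP1 and CD38 did not. In RPMI BtzR TNFRSF17 averaged 6.4 FPKM and CD38 2.7 FPKM, against 18.7 and 12.6 FPKM in ARH77 WT. The 6 B-cell markers, which include MS4A1, summed to 402 FPKM or more in the ARH77 libraries and to no more than 23.1 FPKM in the others.

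Most members were well expressed. UBB exceeded 99.2% to 99.7% of the listed genes in every library and VCP, UBA1, NFE2L1, UCHL5 and USP14 exceeded at least 86.7%. NGLY1 exceeded 67.5% to 90.1%. DDI2 was low, at 3.76 to 8.98 FPKM, a level above 51.6% to 65.4% of genes. UCHL1 ranged from 0 to 285 FPKM. The plot of levels by library gives every value.

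**Figure D1:**
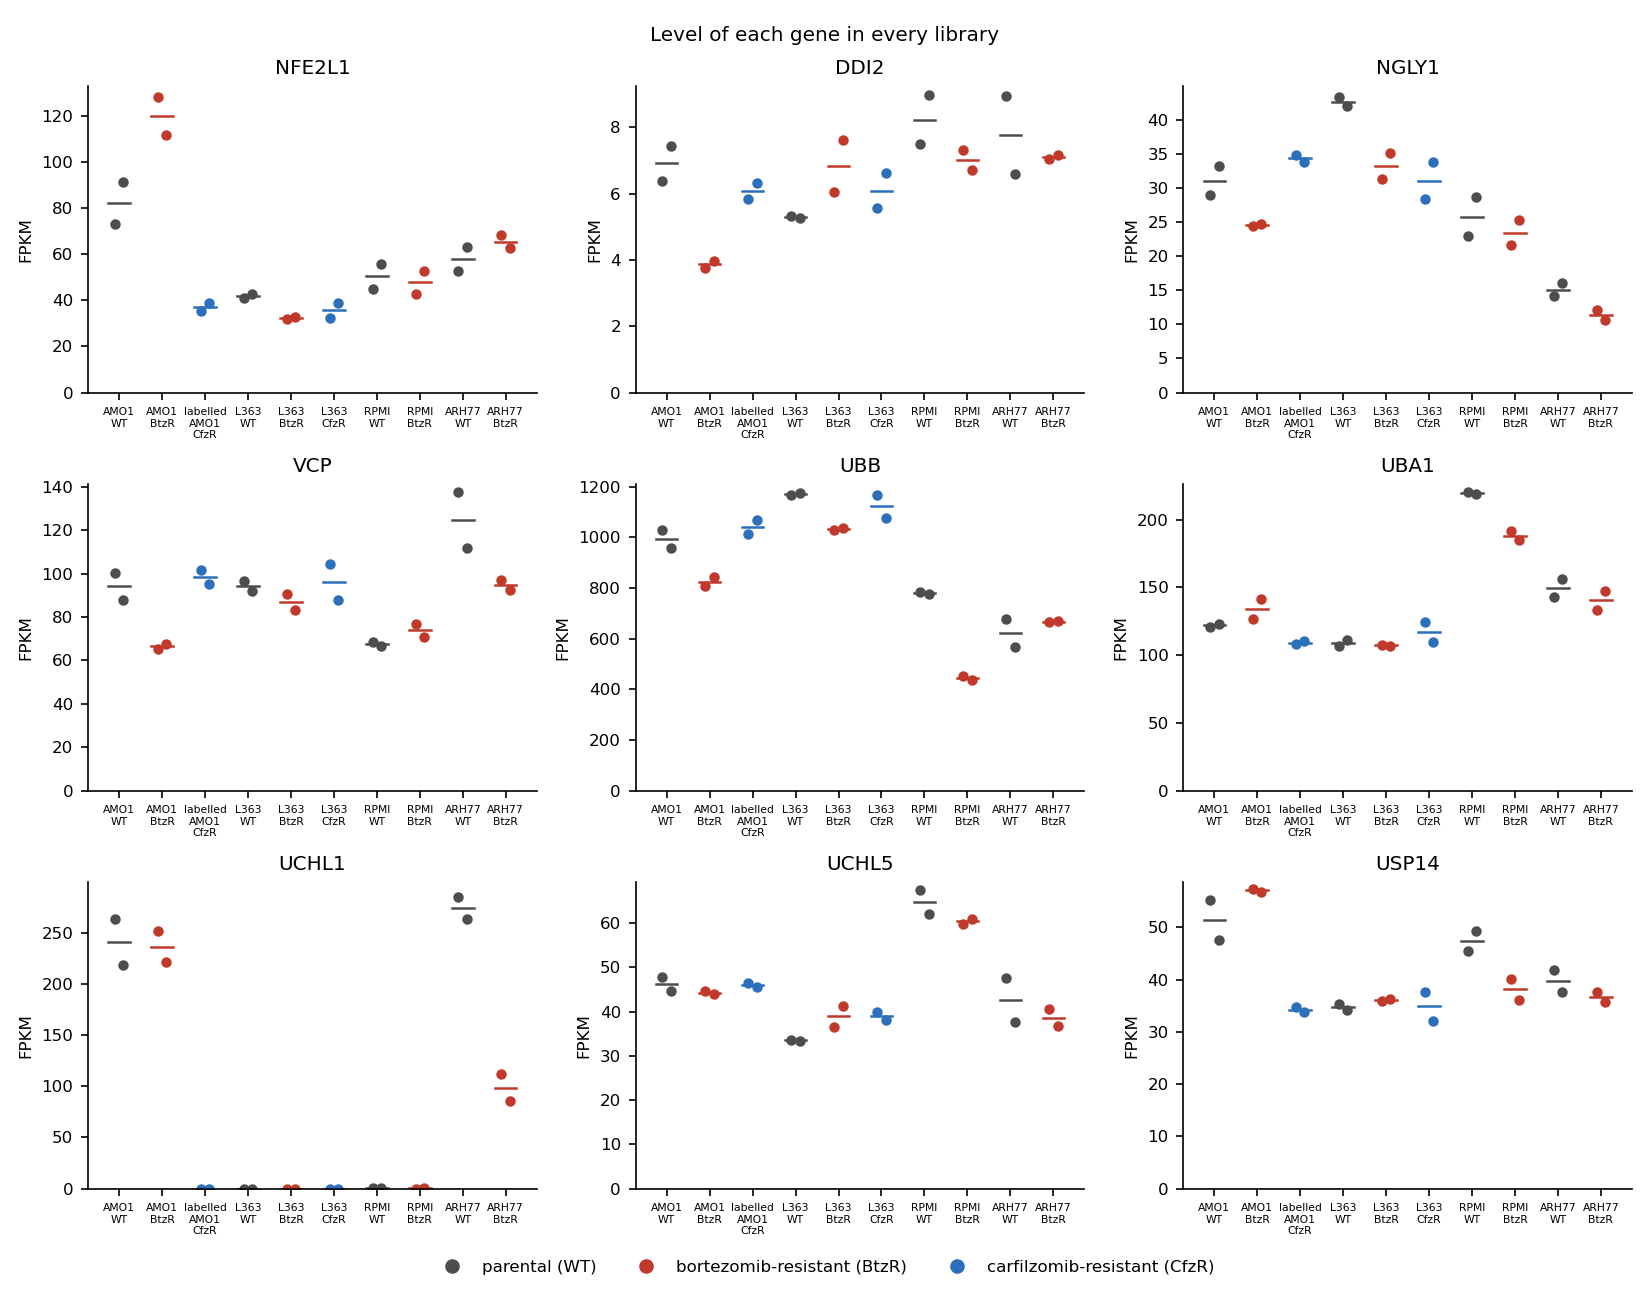
FPKM of the 9 genes (y axis, from 0, a panel per gene) in each of the 20 libraries (points), by group on the x axis, with the group mean as a line. UCHL1 lies at 85.4 FPKM or more in AMO1 WT, AMO1 BtzR and both ARH77 groups and at 0.48 FPKM or less elsewhere; NFE2L1 is highest in AMO1 BtzR (112 and 128 FPKM) and UBB lowest in RPMI BtzR (435 and 452 FPKM).

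The levels differed between the WT lines for 9 of 9 members by limma's F test, where 92.6% of all 13089 tested genes passed an adjusted p of 0.05, so the count is near that of any gene. The adjusted p ran from 7.15e-16 for UCHL1 to 0.00729 for DDI2. Of the 9 steps between neighbouring groups in the order of each gene's levels, between 4 (UBB) and 7 (DDI2 and USP14) joined groups whose libraries overlapped. The same count was not made over all tested genes, so it does not set the members apart. The span of the group means on the log2(FPKM + 1) scale was 8.10 for UCHL1, 1.86 for NFE2L1, 1.82 for NGLY1, 1.40 for UBB, 1.03 for UBA1 and 0.72 to 0.93 for the other members.

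The BtzR groups were first compared with the WT cells of the same line. In AMO1 BtzR, NFE2L1 rose and DDI2, NGLY1, VCP and UBB fell; this is 1 of 9 members higher and 4 lower, where 25.6% of all tested genes were higher and 25.6% lower. In RPMI BtzR, UBB, UBA1 and USP14 fell and 0 rose, against 30.2% of genes higher and 24.2% lower. In ARH77 BtzR, UCHL1 and VCP fell and 0 rose, against 5.98% higher and 7.6% lower. In L363 BtzR, limma called 0 of 9 in either direction (2 higher and 2 lower at an unadjusted p under 0.05), against 5.66% higher and 5.52% lower. The members' median log2-fold change was -0.06 in AMO1, -0.02 in L363, -0.20 in RPMI and -0.11 in ARH77, beside 0.00, 0.00, 0.05 and -0.04 over all tested genes.

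No member changed by 1 or more on the log2 scale, the fold threshold used here, in AMO1 BtzR, L363 BtzR or RPMI BtzR, where 9.18%, 2.06% and 13.8% of genes did, and UCHL1 was the 1 member to do so in ARH77 BtzR, against 1.6% of genes. These p-values rest on a spread per gene pooled over the 2 replicates of all 10 groups, not on that of the compared groups alone. Replicates were not equally close in every group. Their median gap over all tested genes was 0.07 log2 units in L363 WT and 0.21 in ARH77 WT. An exact permutation test of 2 against 2 libraries cannot go below 0.33 and was not made.

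A test of whether the BtzR effect differed between the 4 lines passed for 6 of 9 members, where 71.1% of all tested genes passed. They were UCHL1 (adjusted p = 8.83e-05), UBB (8.84e-05), DDI2 (0.00282), NFE2L1 (0.00584), VCP (0.00832) and USP14 (0.0275). UBA1 (0.0592), UCHL5 (0.114) and NGLY1 (0.511) did not pass.

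The carfilzomib-resistant cells gave 2 groups by label. In L363 CfzR, NGLY1 was the 1 member lower than in L363 WT and 0 were higher, against 3.58% of genes lower, 4.88% higher and 1.93% past the fold threshold. Between L363 CfzR and L363 BtzR limma called 0 of 9 members in either direction (also 0 at an unadjusted p under 0.05), against 3.27% of genes higher, 2.87% lower and 1.47% past the fold threshold. NFE2L1, UCHL1 and USP14 were lower in the libraries labelled AMO1 CfzR than in AMO1 WT, and 0 members were higher, where 30.9% of genes were lower and 26.8% higher. Of these, NFE2L1 and UCHL1 passed the fold threshold, as did 17.1% of genes. Line and resistance cannot be told apart in this comparison, as these libraries correlated more closely with L363 than with AMO1. For NFE2L1, UCHL1 and USP14, L363 WT averaged 41.9, 0.075 and 34.8 FPKM and AMO1 WT 82.2, 241 and 51.4 FPKM. Against L363 WT the libraries labelled AMO1 CfzR had 1 member higher, UCHL5, and 0 lower. Over all genes, 3.52% were higher there, 3.4% lower and 1.66% past the fold threshold.

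**Figure D2:**
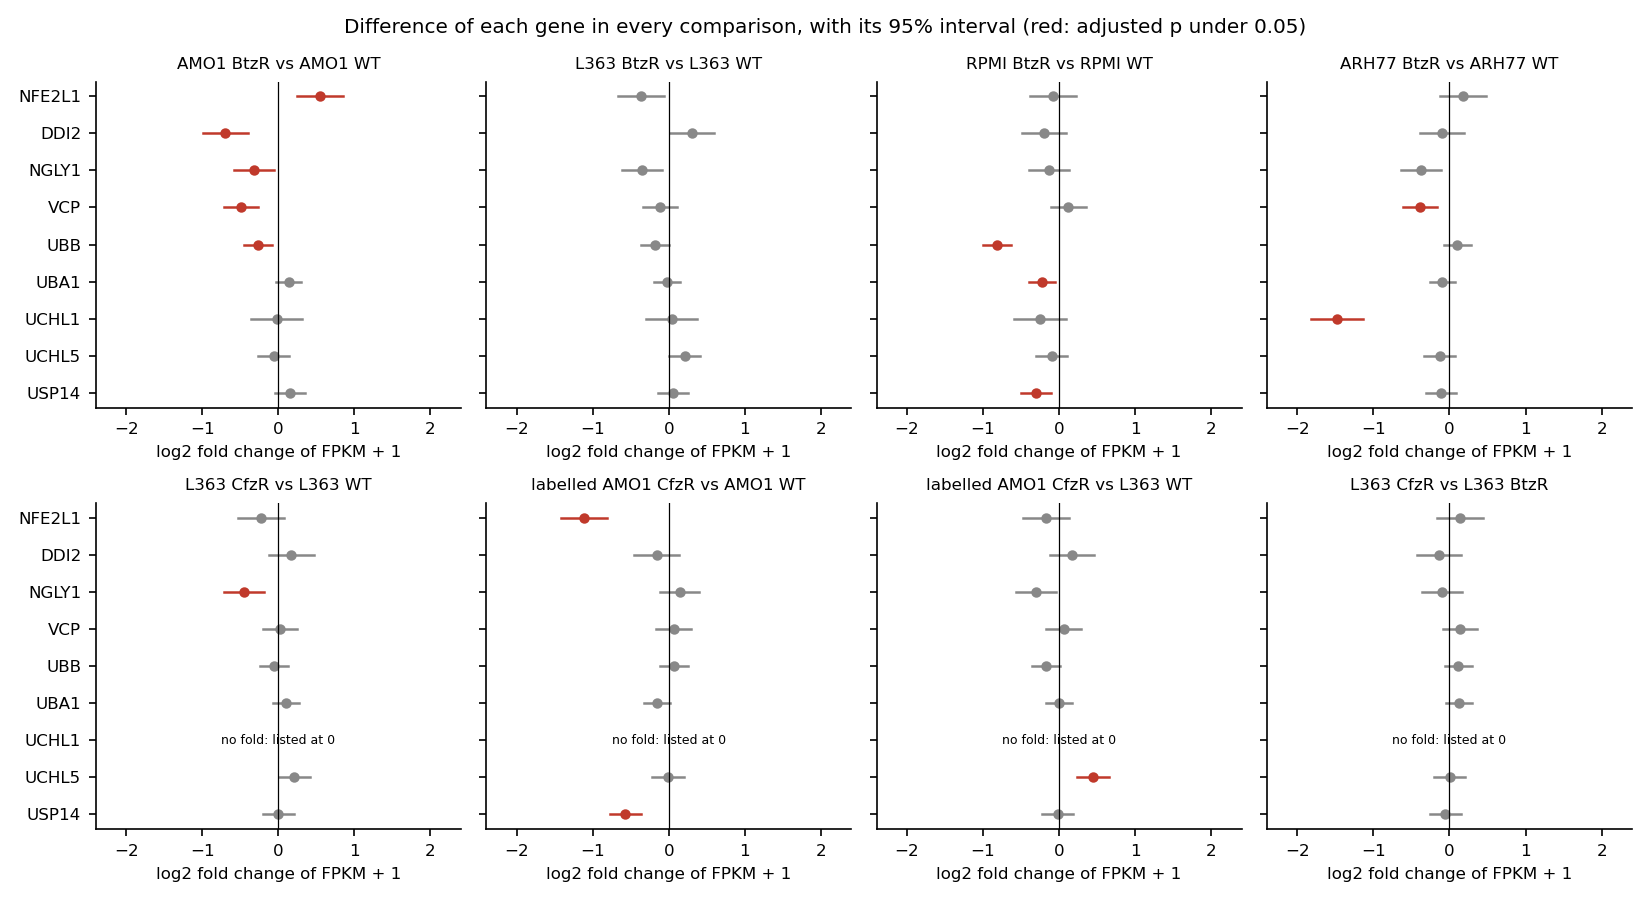
Fitted log2-fold change of FPKM + 1 (x axis) of each gene (y axis) in the 8 comparisons (panels, the first-named group minus the second), with 95% intervals from limma; red marks an adjusted p under 0.05. The intervals of L363 BtzR against WT and of L363 CfzR against BtzR hold no red point, and UCHL1 in ARH77 BtzR (-1.48) is the change of largest size drawn; no fold is drawn where a group is listed at 0.

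NFE2L1, the gene of NRF1, was measured at 73.0 and 91.5 FPKM in AMO1 WT and at 128 and 112 FPKM in AMO1 BtzR. Both resistant libraries lay above both WT libraries. The log2-fold change was 0.55 (SE 0.14, adjusted p = 0.00487), a level 1.46 times that of WT. The call was lost without AMO1 WT replicate 1 (0.38, adjusted p = 0.0732) or without AMO1 BtzR replicate 1 (0.45, adjusted p = 0.0557).

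In L363 the level of NFE2L1 was lower. It was 40.9 and 42.8 FPKM in WT, 31.8 and 32.6 FPKM in BtzR and 32.5 and 39.0 FPKM in CfzR, so both resistant groups lay below the WT libraries. The log2-fold change of BtzR, -0.37 (SE 0.14, adjusted p = 0.121), did not pass with the spread of all groups and did in a fit of the compared libraries alone (adjusted p = 0.00279). That of CfzR was -0.23 (adjusted p = 0.466). The values overlapped between BtzR and WT in RPMI (42.9 and 52.7 against 45.1 and 55.6 FPKM) and in ARH77 (68.4 and 62.7 against 52.8 and 63.3 FPKM).

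With values of 35.4 and 38.8 FPKM, the libraries labelled AMO1 CfzR lay below every other AMO1 library and below L363 WT for NFE2L1. Against AMO1 WT the log2-fold change was -1.12 (SE 0.14, adjusted p = 7.85e-06) and against L363 WT it was -0.17 (adjusted p = 0.69). The genes closest to NFE2L1 over the 10 group means were TNKS2, NECTIN1 and FASTKD2, each with a Pearson r of 0.97. These group means, used in the same way for other members below, share their lines and their controls. The genes named are the highest of the 13089 tested, and no shared control was tested.

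DDI2, the protease that cuts NRF1, fell in AMO1 BtzR while NFE2L1 rose. It was listed at 6.39 and 7.42 FPKM in AMO1 WT and at 3.76 and 3.98 FPKM in AMO1 BtzR, which were the 2 lowest values of all 20 libraries. The log2-fold change was -0.70 (SE 0.14, adjusted p = 0.000664), a ratio of mean FPKM of 0.560. The pseudocount of 1 makes the fitted fold smaller at this low level. In 14 of 14 alternatives the call held, with log2-fold changes from -0.83 to -0.60.

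Elsewhere DDI2 stayed between 5.25 and 8.98 FPKM. In L363 it was 5.32 and 5.25 FPKM in WT, 6.04 and 7.61 FPKM in BtzR and 5.57 and 6.61 FPKM in CfzR, so the resistant libraries were above WT, though neither difference passed (adjusted p = 0.184 and 0.629). In RPMI the values were 7.48 and 8.98 FPKM in WT and 7.32 and 6.71 FPKM in BtzR, which did not overlap and did not pass (adjusted p = 0.238). ARH77 WT (8.95 and 6.58 FPKM) spanned ARH77 BtzR (7.04 and 7.16 FPKM). DDI2 in the libraries labelled AMO1 CfzR, at 5.82 and 6.31 FPKM, lay below AMO1 WT by a log2-fold change of -0.16 (adjusted p = 0.342).

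NGLY1, the cytosolic glycanase that removes the sugars from NRF1, was lower on average in all 4 BtzR groups and in L363 CfzR than in the WT cells of the same line. It fell in AMO1 BtzR, from 28.9 and 33.2 to 24.4 and 24.7 FPKM (log2-fold change -0.32, SE 0.12, adjusted p = 0.0385), and in L363 CfzR, from 43.3 and 42.0 to 28.3 and 33.8 FPKM (-0.45, SE 0.12, adjusted p = 0.0327). Both calls depended on the fit, being lost in 5 alternatives each, at adjusted p up to 0.245 and 0.309. They include each fit without AMO1 BtzR replicate 1 or 2 or AMO1 WT replicate 2, and each without L363 WT replicate 1 or 2 or L363 CfzR replicate 1.

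The other NGLY1 differences had the same sign and did not pass in the fit of all groups. L363 BtzR held 31.2 and 35.1 FPKM (-0.36, adjusted p = 0.0808), ARH77 BtzR 12.1 and 10.7 FPKM against 14.1 and 16.04 FPKM in WT (-0.38, adjusted p = 0.057), and RPMI BtzR 21.6 and 25.3 FPKM against 22.9 and 28.7 FPKM in WT (-0.13, adjusted p = 0.407). The groups overlapped in RPMI only. The L363 BtzR difference passed with the compared libraries only (adjusted p = 0.00719) and with the replicate block (0.0413). The ARH77 difference passed with the replicate block (adjusted p = 0.0272), with scaling to the same sum (0.0358) and without ARH77 WT replicate 1 (0.0353). The F test across lines did not separate these effects (adjusted p = 0.511), which does not show them to be equal. Levels in the libraries labelled AMO1 CfzR, at 34.8 and 33.8 FPKM, were above AMO1 WT and below L363 WT, and neither difference passed (adjusted p = 0.342 and 0.201).

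L363 WT had the highest level of NGLY1 and ARH77 BtzR the lowest. The genes nearest to it over the 10 group means were MRPS24, GLT8D1 and PSMD13 (Pearson r of 0.98, 0.97 and 0.97). PSMD13 encodes a subunit of the proteasome's regulatory particle.

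VCP, the ATPase that pulls NRF1 and other ubiquitinated proteins out of membranes, fell in AMO1 BtzR and in ARH77 BtzR. In AMO1 it went from 100 and 87.9 FPKM in WT to 65.4 and 67.8 FPKM in BtzR, with no overlap. The log2-fold change was -0.49 (SE 0.11, adjusted p = 0.00135) and held in 14 of 14 alternatives. In ARH77 it went from 138 and 112 to 97.2 and 92.6 FPKM, a change of -0.38 (SE 0.11, adjusted p = 0.025). The ARH77 call was lost in the fit of the compared libraries alone (adjusted p = 0.287) and without ARH77 WT replicate 1 or either BtzR replicate (adjusted p = 0.0806 to 0.14).

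In RPMI the VCP values were instead somewhat higher in BtzR, at 77.0 and 70.8 FPKM against 68.7 and 66.9 FPKM, without passing (0.12, adjusted p = 0.356). L363 BtzR (90.5 and 83.4 FPKM) lay below L363 WT (96.6 and 92.1 FPKM) and also did not pass (-0.12, adjusted p = 0.594). L363 CfzR (105 and 87.8 FPKM) overlapped L363 WT. VCP in the libraries labelled AMO1 CfzR (102 and 95.04 FPKM) overlapped both WT groups they were set against. RPMI WT and AMO1 BtzR, the 2 lowest groups, overlapped each other.

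UBB, one of the genes that supply ubiquitin, was the most abundant member and fell most in RPMI BtzR. It was 784 and 778 FPKM in RPMI WT and 452 and 435 FPKM in RPMI BtzR. The groups did not overlap, and RPMI BtzR was the lowest of the 10 groups. The log2-fold change was -0.82 (SE 0.09, adjusted p = 1.36e-06), a level 0.568 times that of WT, and the call held in 14 of 14 alternatives.

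A smaller fall of UBB was seen in AMO1 BtzR, from 1029 and 960 FPKM to 809 and 842 FPKM (-0.27, SE 0.09, adjusted p = 0.0167). It was lost in a fit of the compared libraries alone (adjusted p = 0.0678) and without AMO1 WT replicate 1 or AMO1 BtzR replicate 1 (0.104 and 0.0968). In L363 the values were 1167 and 1174 FPKM in WT, 1029 and 1037 FPKM in BtzR and 1169 and 1076 FPKM in CfzR. Neither the BtzR difference (-0.18, adjusted p = 0.222), whose groups did not overlap, nor the CfzR difference (-0.06, adjusted p = 0.854), whose groups did, passed.

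In ARH77 the groups overlapped, with 678 and 567 FPKM in WT around 665 and 670 FPKM in BtzR (0.11, adjusted p = 0.49). In both libraries labelled AMO1 CfzR, UBB reached 1013 FPKM or more. Over the 10 group means the genes most like UBB were ALDH1L2, CALR and EDEM2 (Pearson r of 0.98 each). CALR and EDEM2 act in protein folding and quality control in the endoplasmic reticulum.

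UBA1, the enzyme that activates ubiquitin for nearly all ubiquitination, fell slightly in RPMI BtzR. It was 221 and 219 FPKM in RPMI WT and 192 and 185 FPKM in RPMI BtzR, the highest groups of the 10, with no overlap. The log2-fold change was -0.22 (SE 0.08, adjusted p = 0.0276), and 6 of the alternatives ended the call at adjusted p between 0.0584 and 0.116. They include the fits without RPMI WT replicate 1 or 2 and without RPMI BtzR replicate 2.

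In the other lines UBA1 stayed close to WT. AMO1 BtzR, at 127 and 141 FPKM, lay above AMO1 WT at 121 and 123 FPKM (0.13, adjusted p = 0.179). L363 held 107 and 111 FPKM in WT, 108 and 107 FPKM in BtzR and 124 and 110 FPKM in CfzR. Both resistant groups overlapped WT, and CfzR lay above BtzR without passing (0.12, adjusted p = 0.595). ARH77 WT (143 and 157 FPKM) overlapped ARH77 BtzR (134 and 147 FPKM), and the libraries labelled AMO1 CfzR were at 108 and 110 FPKM. The genes most like UBA1 over the 10 group means were DOPEY2, FAM86B1 and ALDH1A3 (Pearson r of 0.99, 0.98 and 0.98).

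UCHL1, a deubiquitinase best known from neurons and from neuroendocrine and some blood cancers, was either abundant or close to 0 by line. It was 263 and 218 FPKM in AMO1 WT and 251 and 221 FPKM in AMO1 BtzR, which overlapped (-0.02, adjusted p = 0.944). ARH77 WT held 285 and 264 FPKM and ARH77 BtzR 112 and 85.4 FPKM. The fall in ARH77 was the largest change of a member in a BtzR comparison, with a log2-fold change of -1.48 (SE 0.16, adjusted p = 1.57e-05) and a level 0.360 times that of WT.

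All other groups were at or below 0.48 FPKM. L363 WT was listed at 0.1 and 0.05 FPKM, L363 BtzR at 0.05 and 0.16 FPKM and L363 CfzR at 0 in both libraries. RPMI WT was listed at 0.38 and 0.48 FPKM and RPMI BtzR at 0 and 0.44 FPKM. At these levels no difference between drug groups could be read. UCHL1 was listed at 0 in both libraries labelled AMO1 CfzR, as in L363 CfzR, while the 4 other AMO1 libraries held 218 FPKM or more (adjusted p = 8.44e-15, with no fold given against a group listed at 0).

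The size of the UCHL1 fall in ARH77 did not depend on the pseudocount (-1.49 with 0.1 and with 0.01), but its call did (adjusted p = 0.0752 and 0.464). The fit of all groups also takes its spread from groups near 0, such as RPMI BtzR (0 and 0.44 FPKM). In a fit of the 4 ARH77 libraries alone, with a pseudocount of 1, the adjusted p was 0.0202. Leaving out each ARH77 library in turn gave log2-fold changes from -1.67 to -1.28 and adjusted p no higher than 0.000468.

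Neuronal markers were checked beside UCHL1. SYP was at 4.86 FPKM or less and CHGA at 0.24 FPKM or less in every library, and SNAP25 was at 0.23 FPKM or less outside ARH77, where it was 5.85 to 9.66 FPKM. ENO2, which many dividing cells also express, was 45.6 to 52.3 FPKM in the AMO1 WT and BtzR libraries, 19.3 to 24.9 FPKM in ARH77 and 5.07 to 19.1 FPKM elsewhere. The 6 markers summed to 46.8 to 53.2 FPKM in AMO1 WT, 27.7 to 33.8 in ARH77 WT and 35.5 to 35.7 in ARH77 BtzR, where UCHL1 was lower. Their part in the UCHL1 levels was not tested.

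The genes whose group means followed UCHL1 most closely were GSTP1, CCDC74B and RGCC (Pearson r of 0.99 each over 10 groups). GSTP1, a glutathione transferase, spanned 9.18 on the log2(FPKM + 1) scale, more than UCHL1. As the member with the widest range of levels, UCHL1 is shown with its promoter window (GRCh38.p14, chr4:41256678-41256977, plus strand), in which CG steps are in capitals.
UCHL1 promoter: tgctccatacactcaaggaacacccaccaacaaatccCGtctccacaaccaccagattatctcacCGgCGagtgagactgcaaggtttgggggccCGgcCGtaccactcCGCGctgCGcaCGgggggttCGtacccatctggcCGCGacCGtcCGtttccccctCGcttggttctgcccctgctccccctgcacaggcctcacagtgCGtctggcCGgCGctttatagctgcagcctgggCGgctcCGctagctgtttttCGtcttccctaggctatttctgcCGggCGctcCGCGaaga
It holds 25 CG steps in 300 bases, against a median of 14 over all windows, and 32.0% of windows hold as many. The windows of the other members held 16 to 39. Methylation was not measured.

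UCHL5, a deubiquitinase that binds the proteasome through the receptor ADRM1, moved little with resistance. RPMI WT (67.5 and 62.1 FPKM) and RPMI BtzR (59.9 and 60.9 FPKM) were the highest groups, and the difference did not pass (-0.10, adjusted p = 0.413). AMO1 WT held 47.9 and 44.6 FPKM and AMO1 BtzR 44.5 and 44.0 FPKM (-0.06, adjusted p = 0.649). ARH77 WT (47.5 and 37.7 FPKM) overlapped ARH77 BtzR (40.5 and 36.8 FPKM).

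L363 WT was the lowest group for UCHL5, and the other L363 libraries lay above it. It held 33.5 and 33.4 FPKM, against 36.6 and 41.3 FPKM in L363 BtzR (0.21, adjusted p = 0.201) and 39.8 and 38.1 FPKM in L363 CfzR (0.21, adjusted p = 0.247). UCHL5 in the libraries labelled AMO1 CfzR, at 46.4 and 45.5 FPKM, was higher than L363 WT by a log2-fold change of 0.45 (SE 0.10, adjusted p = 0.00871). These 3 comparisons share the L363 WT libraries. The call was lost without any 1 of the 4 libraries (adjusted p = 0.056 to 0.0786). Against AMO1 WT the same libraries overlapped (-0.01, adjusted p = 0.969).

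USP14, the other deubiquitinase of the proteasome, which trims ubiquitin chains at its regulatory particle, fell in RPMI BtzR from 45.5 and 49.2 to 40.2 and 36.1 FPKM. The log2-fold change was -0.31 (SE 0.09, adjusted p = 0.0117). The call was lost in a fit of the compared libraries alone (adjusted p = 0.0702) and without RPMI WT replicate 2 or RPMI BtzR replicate 2 (0.0903 and 0.0948). AMO1 BtzR, at 57.4 and 56.8 FPKM, was the highest group and lay above AMO1 WT at 55.3 and 47.6 FPKM without passing (0.15, adjusted p = 0.196).

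In the L363 groups USP14 was 35.4 and 34.2 FPKM in WT, 35.9 and 36.3 FPKM in BtzR and 37.6 and 32.2 FPKM in CfzR. ARH77 held 41.9 and 37.7 FPKM in WT and 37.7 and 35.6 FPKM in BtzR (-0.11, adjusted p = 0.496). USP14 in the libraries labelled AMO1 CfzR, at 34.7 and 33.8 FPKM, was lower than AMO1 WT by a log2-fold change of -0.57 (SE 0.09, adjusted p = 9.85e-05) and within the L363 range (-0.02 against L363 WT, adjusted p = 1).

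USP14 stood at 0.488 to 0.835, and UCHL5 at 0.462 to 1.23, of the median FPKM of the proteasome ATPase genes PSMC1 to PSMC6 per library. These 6 genes did not move together. By log2-fold change in AMO1 BtzR, PSMC1 (0.60) and PSMC6 (0.77) rose and PSMC2 (-0.67) and PSMC5 (-1.03) fell, while PSMC3 and PSMC4 did not pass. Their median is therefore no measure of the amount of proteasome. In AMO1 the USP14 ratio was 0.674 and 0.645 in WT and 0.778 and 0.738 in BtzR. In L363 it was 0.488 and 0.514 in WT and 0.581 and 0.638 in BtzR, and the UCHL5 ratio was 0.462 and 0.502 in WT and 0.592 and 0.725 in BtzR. These groups did not overlap, while the L363 CfzR ratios of USP14 (0.494 and 0.555) overlapped those of WT and its UCHL5 ratios (0.523 and 0.657) lay above them. The ATPase median itself was 72.5 and 66.5 FPKM in L363 WT and 61.8 and 56.9 FPKM in L363 BtzR.

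RPMI had the highest UCHL5 ratio, at 1.06 and 1.05 in WT and 1.00 and 1.23 in BtzR, and its USP14 ratio overlapped between groups (0.712 and 0.835 against 0.673 and 0.727). The ARH77 ratios overlapped for USP14 (0.582 and 0.743 in WT, 0.689 and 0.718 in BtzR) and for UCHL5. These ratios carry no test.

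**Figure D3:**
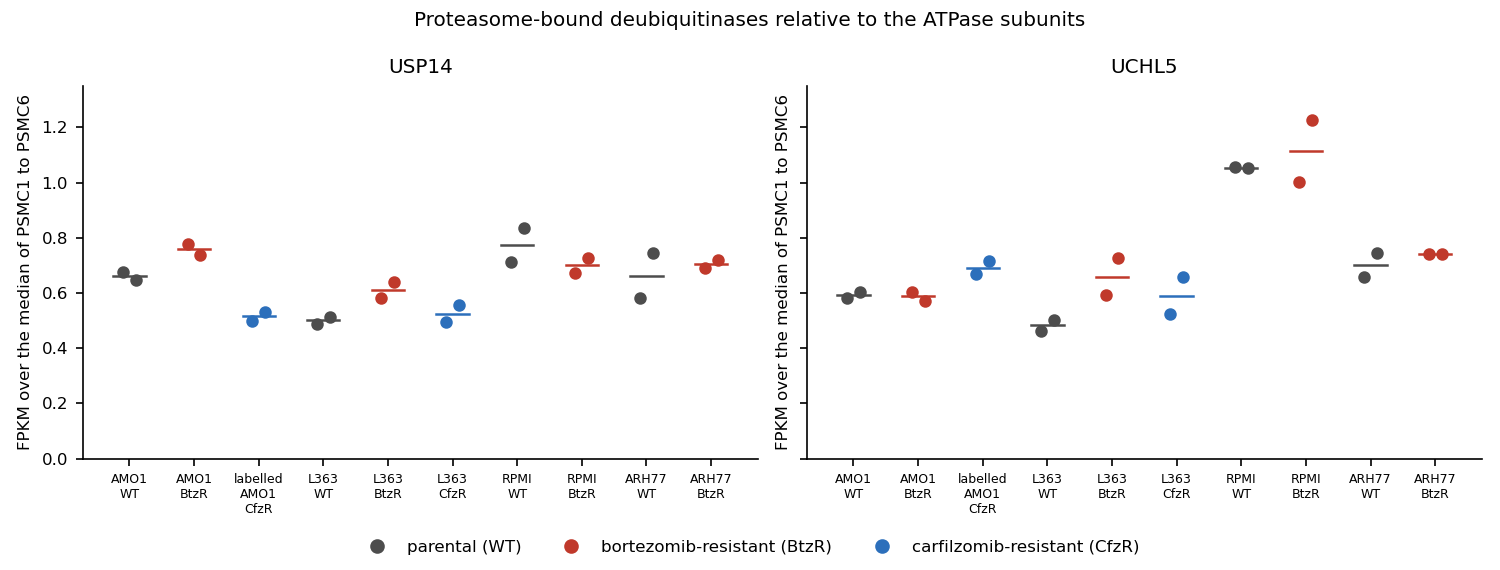
FPKM of USP14 (left) and UCHL5 (right) divided by the median FPKM of PSMC1 to PSMC6 in the same library (y axis, from 0), a point per library, group mean as a line, groups on the x axis. UCHL5 reaches 1.00 to 1.23 in the RPMI groups, and both ratios are lowest on average in L363 WT (0.488 and 0.514 for USP14, 0.462 and 0.502 for UCHL5).

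Of the 103 other genes listed for the pathway, 101 were tested. Their counts are read against the share of all tested genes called in the same direction, which was 25.6% higher and 25.6% lower in AMO1 BtzR, 30.2% and 24.2% in RPMI BtzR, 5.98% and 7.6% in ARH77 BtzR and 5.66% and 5.52% in L363 BtzR. Among the 11 genes of NRF1 release and turnover, 5 rose and 2 fell in AMO1 BtzR (median log2-fold change 0.19), 2 rose and 1 fell in RPMI BtzR (0.11), and 1 rose and 3 fell in ARH77 BtzR (-0.08). FAF2, a VCP cofactor at the endoplasmic reticulum membrane, was the 1 gene of the 11 that rose in all 3, by 0.67, 0.58 and 0.38. SYVN1, the ubiquitin ligase that marks NRF1 at that membrane, fell in AMO1 BtzR (-0.64) and in RPMI BtzR (-1.19). Its partner SEL1L was lower in the libraries labelled AMO1 CfzR than in AMO1 WT, just past the fold threshold (adjusted p = 3.59e-05). Limma called 0 of the 11 in L363 BtzR (1 higher and 1 lower at an unadjusted p under 0.05).

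NFE2L2, the relative of NFE2L1 that drives the oxidative stress response, rose in RPMI BtzR from 22.7 to 26.0 FPKM to 27.3 to 37.7 FPKM (0.39, adjusted p = 0.0175). Its levels in AMO1 BtzR (-0.21, adjusted p = 0.18) and ARH77 BtzR (-0.29, adjusted p = 0.154) did not pass. NFE2L2 was 20.6 to 22.3 FPKM in the libraries labelled AMO1 CfzR against 67.4 to 71.9 FPKM in AMO1 WT (-1.66, adjusted p = 3.13e-08) and overlapped L363 WT (0.07, adjusted p = 0.931). MAFF, a partner of these factors, was also lower than in AMO1 WT (-1.28). NFE2L3, a further relative, rose slightly in AMO1 BtzR (0.20, adjusted p = 0.0479) and fell in L363 CfzR (-0.29, adjusted p = 0.0347).

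The repressor BACH1 fell in AMO1 BtzR (-0.52) and RPMI BtzR (-0.78). Of the 8 tested genes of this family and its partners, 1 rose and 2 fell in AMO1 BtzR and 4 rose and 1 fell in RPMI BtzR. Among the 10 other VCP cofactors, 4 fell and 0 rose in AMO1 BtzR and 4 rose and 2 fell in RPMI BtzR, with medians of -0.28 and 0.00. Over all genes 25.6% rose and 25.6% fell in AMO1 BtzR and 30.2% rose and 24.2% fell in RPMI BtzR.

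The proteasome subunit genes, which NRF1 is known to control, changed in both directions in each BtzR line. Of 33 genes, 10 rose and 14 fell in AMO1 BtzR (median -0.13), 2 rose and 7 fell in L363 BtzR (-0.18), 9 rose and 3 fell in RPMI BtzR (0.09) and 6 rose and 9 fell in ARH77 BtzR (-0.22). The share of all genes that rose and fell was 25.6% and 25.6%, 5.66% and 5.52%, 30.2% and 24.2%, and 5.98% and 7.6% in the same order. PSMB5, the subunit that both drugs bind, rose in all 4, by 0.88, 1.73, 1.70 and 0.75. In ARH77 its WT libraries lay far apart, at 71.6 and 43.2 FPKM, against 100 and 88.8 FPKM in BtzR. Whether calls of single subunit genes hold in the alternatives was not tested. In AMO1 BtzR PSMA6 rose by 1.22, while PSMD3, PSMC5 and PSMD12 had log2-fold changes of -1.16, -1.03 and -1.01. In RPMI BtzR PSMC1 rose by 1.00 and PSMC3 had a change of -1.10.

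In L363 CfzR limma called 0 of the 33 subunit genes (0 higher and 1 lower at an unadjusted p under 0.05). Over all tested genes, 4.88% were higher and 3.58% lower there. L363 CfzR held PSMB5 at a mean of 62.2 FPKM against 190 FPKM in L363 BtzR (-1.60, adjusted p = 2.78e-05), and PSMB1 was also lower (-0.73). Libraries labelled AMO1 CfzR differed from AMO1 WT at 14 subunit genes, 5 higher and 9 lower, where 26.8% and 30.9% of all genes were, among them SEM1 (1.27) and PSMB6 (-1.15). From L363 WT limma called them different at 0 of the 33 (also 0 at an unadjusted p under 0.05), where 3.52% of all genes were higher and 3.4% lower. With such shares, few calls would fall among any 33 genes.

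Among the 23 other ubiquitin, activating and conjugating enzyme genes, 5 rose and 8 fell in AMO1 BtzR and 8 rose and 0 fell in RPMI BtzR, with medians of -0.02 and 0.23, against 25.6% of all genes each way in AMO1 BtzR and 30.2% higher and 24.2% lower in RPMI BtzR. UBE2H (-1.31) and UBE2G1 (-1.10), both conjugating enzymes, fell most in AMO1 BtzR, and UBE2B rose most in RPMI BtzR (1.01). UBE2A, a close relative of UBE2B, was lower than in L363 WT in L363 BtzR (-1.05), in L363 CfzR (-0.99) and in the libraries labelled AMO1 CfzR (-1.01), 3 comparisons that share the WT libraries. UBE2G1 was lower in the libraries labelled AMO1 CfzR than in AMO1 WT (-1.18). Limma called 0 of the 23 in ARH77 BtzR (0 higher and 3 lower at an unadjusted p under 0.05). Over all tested genes, 5.98% were higher and 7.6% lower in ARH77 BtzR.

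Of the 16 other deubiquitinases, 5 rose and 5 fell in AMO1 BtzR, 6 rose and 5 fell in RPMI BtzR, 0 rose and 2 fell in ARH77 BtzR and 1 rose and 0 fell in L363 BtzR. Of all genes, 25.6% rose and 25.6% fell in AMO1 BtzR, 30.2% and 24.2% in RPMI BtzR, 5.98% and 7.6% in ARH77 BtzR and 5.66% and 5.52% in L363 BtzR. USP13 rose in RPMI BtzR (1.30), from a mean of 8.82 to 23.2 FPKM, and YOD1, a deubiquitinase that works with VCP, fell from a mean of 2.67 to 0.01 FPKM (-1.86, adjusted p = 3.34e-07). UCHL3, a close relative of UCHL1, fell in AMO1 BtzR (-0.37, adjusted p = 0.00612) and did not pass in the other 3 BtzR comparisons (adjusted p = 0.0773 to 0.998). USP7 was lower in the libraries labelled AMO1 CfzR than in AMO1 WT (-1.20).

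**Figure D4:**
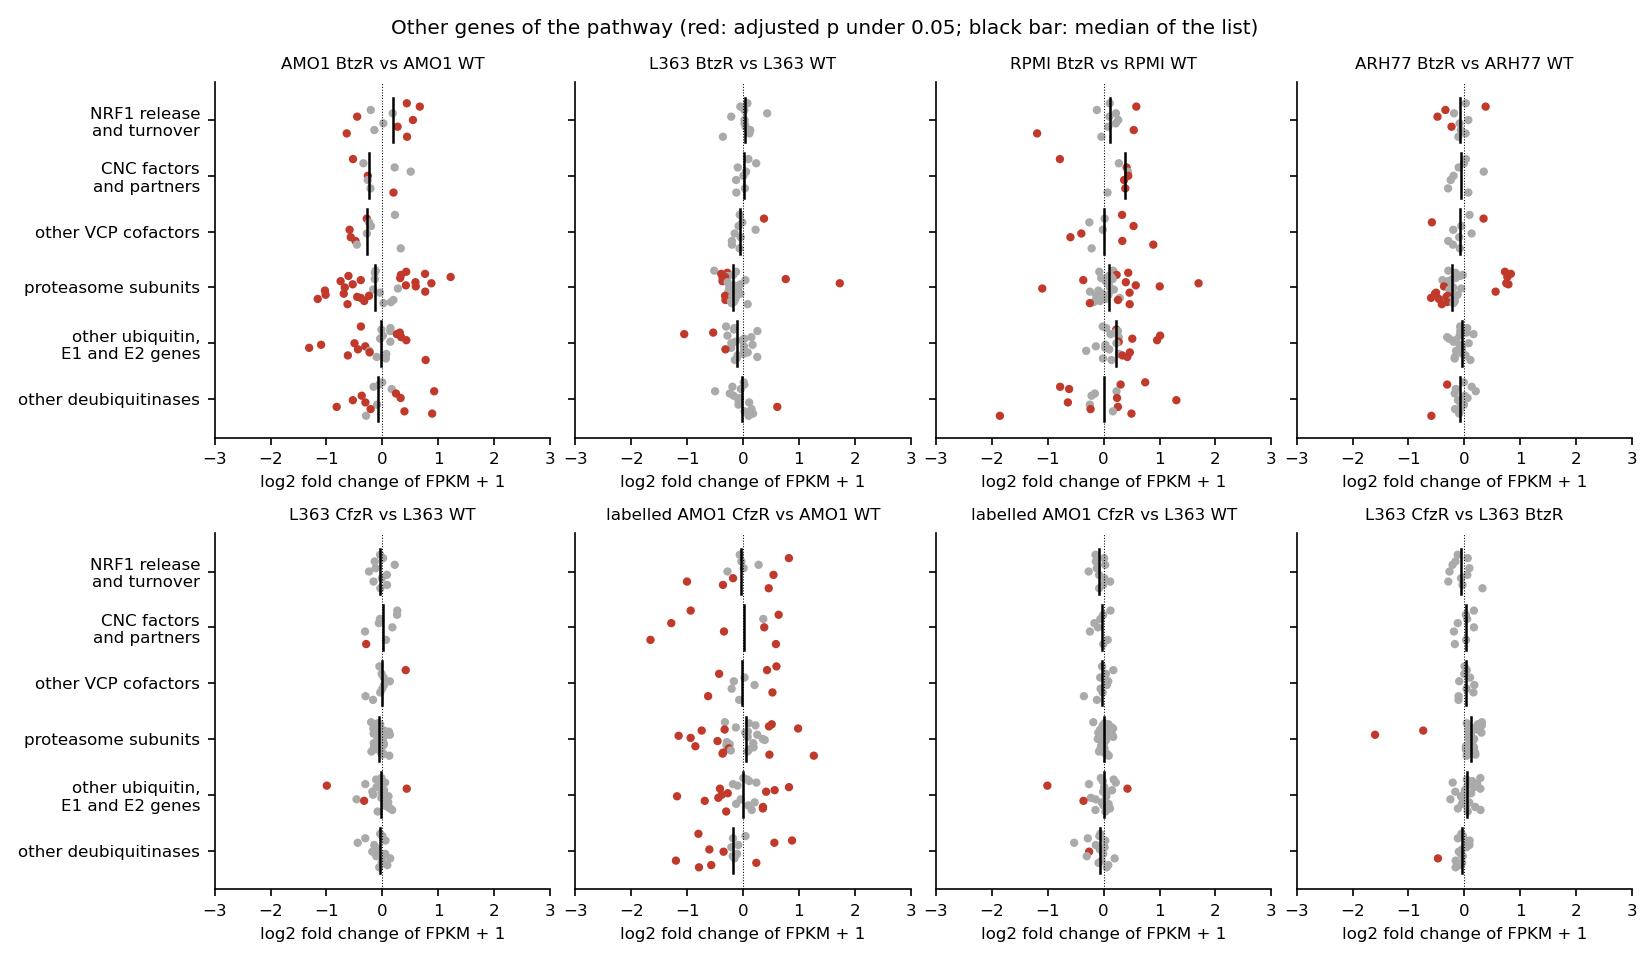
Fitted log2-fold change of FPKM + 1 (x axis) of the 101 tested pathway genes in the 8 comparisons (panels), by list (y axis), a point per gene, red at an adjusted p under 0.05, with the list's median as a black bar. Red points lie on both sides of 0 in AMO1 BtzR (10 subunit genes higher and 14 lower, against 25.6% of all genes each way). None of the 33 subunit genes is red in L363 CfzR against WT, where 4.88% of all genes were higher and 3.58% lower. None is red in the libraries labelled AMO1 CfzR against L363 WT, where 3.52% and 3.4% were.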

How the data were processed

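Extracted RNA of 20 cell line samples was made into libraries and sequenced by BGI on the BGISEQ-500. The authors deposited FPKM values per replicate for 18305 genes with NCBI gene IDs. The submitters' processing notes name HISAT2 2.0.4, Bowtie2 2.2.5 and RSEM 1.2.12. The genome build and read length are not given in the sources used here. Without read counts the depth of each library is unknown, so no counting intervals were computed and precision rests on 2 replicates.

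Values were taken as log2(FPKM + 1). Genes were kept if 1 or more groups averaged 1 FPKM (13089). Limma modelled the 10 group means (version 3.58.1, R 4.3.3), with a mean-variance trend and 10 residual degrees of freedom. Pairwise and F tests were adjusted by Benjamini-Hochberg over all tested genes, with a threshold of 0.05. A fold on this scale understates the change of low genes. The test was checked on simulated data with the same spread per gene in every group, which does not cover unequal replicate gaps. Samples were grouped by the line, drug and replicate in their labels.

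The members and gene lists were chosen with earlier results of these data known. Named pathway genes passed the threshold and moved by 1 or more on the log2 scale, at most 3 each way per list and comparison. UCHL3, NFE2L2 and NFE2L3 were named in addition. PSMC1 to PSMC6 were named in AMO1 BtzR as the genes of the ATPase median, whatever their fold. Others named below that fold were chosen after their values were seen. They were FAF2, SYVN1 in AMO1, BACH1, PSMB1, PSMB5 in AMO1 and ARH77, and UBE2A in L363 CfzR. For members spanning at least 1 log2 unit, the 3 tested genes of highest Pearson r over group means were named. Protein sequences were not used here, so ubiquitin units were counted in translated GENCODE v29 coding sequences. Promoter windows are those of RefSeq. Some genes of the lists are not reported by name here. Alternatives were pseudocounts of 0.1 and 0.01, no filter or one of 5 FPKM, scaling to the same sum, quantile normalization, no trend, a replicate block, the compared libraries only, and leaving out libraries. Counts and plots were made in Python 3.11.15 (matplotlib 3.10.9, pandas 2.3.3, numpy 2.4.6).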

Additional observations from a re-analysis of the deposited data

Results flagged for a closer look

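By limma's F test, 6 members changed unequally with bortezomib resistance across the 4 lines. UCHL1 (adjusted p = 8.83e-05) was lower in ARH77 BtzR by a log2-fold change of -1.48 and overlapped WT in the other lines, and its F test lost the call with a pseudocount of 0.1 (adjusted p = 0.112) or 0.01 (0.29). For UBB (adjusted p = 8.84e-05) the log2-fold changes were -0.27 in AMO1, -0.18 in L363, -0.82 in RPMI and 0.11 in ARH77. For DDI2 (adjusted p = 0.00282) they were -0.70, 0.31, -0.20 and -0.10 in the same order. NFE2L1 (adjusted p = 0.00584) had 0.55, -0.37, -0.07 and 0.18, and both libraries of AMO1 BtzR lay above WT where both of L363 BtzR lay below. VCP (adjusted p = 0.00832) had -0.49, -0.12, 0.12 and -0.38. USP14 (adjusted p = 0.0275) had 0.15, 0.05, -0.31 and -0.11, and this call was lost in 5 of the fits that left out a library (adjusted p = 0.0535 to 0.093). Over all tested genes, 71.1% passed the same test.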

How the results depend on the processing

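No member changed direction past the threshold under any alternative, and of the members' single results 1289 stayed on their side of the threshold, 41 lost a call, 17 gained one and 34 changed sign with no call on either side. Among the pairwise comparisons, DDI2 and VCP in AMO1 BtzR and UBB in RPMI BtzR kept their calls in every alternative run. So did NFE2L1, UCHL1 and USP14 in the libraries labelled AMO1 CfzR against AMO1 WT, where line and resistance cannot be told apart. With a pseudocount of 0.1 or 0.01 the members called in ARH77 BtzR went from 2 to 1 and those past the fold threshold from 1 to 0. Scaling to the same sum left 0 of 1 in L363 CfzR. With the compared libraries only, the counts became 2 (from 0) in L363 BtzR, 1 (from 3) in RPMI BtzR, 1 (from 2) in ARH77 BtzR and 2 (from 1) in the libraries labelled AMO1 CfzR against L363 WT. The cause was not tested. With the replicate block 1 member, NGLY1 (adjusted p = 0.0413), was called in L363 BtzR in place of 0, and NGLY1 was also called in ARH77 BtzR (adjusted p = 0.0272). Same-numbered libraries deviated together at r of -0.01 in AMO1 and 0.12 to 0.24 in the other comparisons, and they share only a number.

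Leaving out 1 library gave 2 to 4 members in AMO1 BtzR (5 in full), 1 to 3 in RPMI BtzR (3), 1 to 3 in ARH77 BtzR (2), 0 to 1 in L363 CfzR (1), 0 in the libraries labelled AMO1 CfzR against L363 WT (1), and 1 to 2 past the fold threshold for them against AMO1 WT (2); 1 library fewer leaves a group with 1, assumed to vary like the others. Over all genes the counts past the fold threshold grew with pseudocounts of 0.1 or 0.01, to 1919 and 2024 in AMO1 BtzR (from 1201), 580 and 582 in L363 BtzR (270), 2722 and 2845 in RPMI BtzR (1809), 473 and 465 in ARH77 BtzR (210, and 342 with scaling to the same sum), 546 and 517 in L363 CfzR (253), 383 and 348 between L363 CfzR and BtzR (193) and 494 and 510 for the labelled AMO1 CfzR libraries against L363 WT (217), while against AMO1 WT 0.01 gave 3412 (2237). With the compared libraries only, 3194 genes were called in L363 BtzR (1464 in the fit of all groups), 227 in ARH77 BtzR (1778) and 2036 in the labelled AMO1 CfzR libraries against L363 WT (906). Leaving out a library moved the calls to between 784 and 897 in L363 BtzR, 1019 and 3140 in ARH77 BtzR, 663 and 717 in L363 CfzR (1108), 521 and 558 in the labelled AMO1 CfzR libraries against L363 WT, and to 472 between L363 CfzR and BtzR (803). In ARH77 BtzR, 347 passed the fold threshold without WT replicate 1. Precision is limited by 2 libraries per group and an unknown depth.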
